A study of Caenorhabditis elegans with 2 samples.

Results

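The 8 genes described here encode the segregase CDC-48 in its 2 copies (cdc-48.1 and cdc-48.2), its cofactors UFD-1, NPL-4 (npl-4.1 and npl-4.2), UFD-2 and UFD-3, and the ubiquitin ligase EEL-1. They are 8 of the 19973 protein-coding genes annotated on nuclear chromosomes, and every listed ChIP-seq summit in the gene body, in the 2000 bp upstream and in the 1000 bp downstream was collected. This stretch is called the neighbourhood of a gene. The genes were selected on the deposited peak signals near them, which are strong at some of the 8, so these signals are given as a description and no test was made on them.

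REF-2 is a transcription factor with zinc fingers of the Zic type. Chromatin was immunoprecipitated from whole hermaphrodites of 1 transgenic strain, OP520, of genotype unc-119(tm4063) III; wgIs520, in which REF-2 has a C-terminal GFP-FLAG tag. Late embryos were collected 3 hours after synchronization by egg bleaching, and anti-GFP antibody was used, although the antibody field of the labels names ref-2. The series is 1 group of 2 biological replicates, both of this strain and with both the mutation and the transgene, and untagged or input samples were not analysed here. Whole organisms were used, so no cell type can be assigned to any peak, and whether the replicates were separate cultures is not stated.

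CDC-48, called p97 or VCP in mammals, is a ring-shaped ATPase that pulls ubiquitinated proteins out of membranes, chromatin and complexes and unfolds them. UFD-1 and NPL-4 form the adaptor that brings ubiquitinated clients to the ring, UFD-2 extends ubiquitin chains on clients, and UFD-3 is a further ubiquitin-binding cofactor. In C. elegans embryos CDC-48 with UFD-1 and NPL-4 is known for removing the replicative helicase from chromatin. EEL-1, the counterpart of mammalian HUWE1, is a large ligase with a HECT catalytic domain that limits the transcription factor SKN-1 in early embryos.

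The authors deposited 4 lists of peaks on the ce11 build used here. The optimal list has 2129 peaks with a signal from 106 to 2351 and a median of 146. The other 3 lists, called relaxed because they reach far below that threshold, have 30000 peaks each. Their median signal is 52.8 in the list made from both replicates together, called pooled, 25.9 in that of replicate 1 and 30.4 in that of replicate 2. The pooled relaxed list is labelled as peaks and background. Its −log10 q, a deposited value per peak, starts at 0.0557, against 0.954 in the optimal list. Signal is the authors' own value per peak, and ranks below count from the strongest peak of the list named. Library depth is unknown, so counting error cannot be given.

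Of the 8 genes, 5 had an optimal summit in their neighbourhood, against 2531 of all 19973 genes (12.7%). The same 5, namely cdc-48.1, cdc-48.2, ufd-2, ufd-3 and eel-1, had an optimal summit in the promoter window, taken as the 1000 bp before the gene's 5' end and the 200 bp after it, against 1257 of all genes (6.29%). The 3 genes without one were the core adaptor genes ufd-1, npl-4.1 and npl-4.2. The cdc-48.2 summit lay 3 bp inside the window and outside it in replicate 1. It is nearer to ctns-1 (-581 bp), so it cannot be assigned to cdc-48.2 alone. At npl-4.1 and npl-4.2 only 2.65% of the promoter window was unique in sequence. None of the 257 genes under 10% unique had a pooled summit there, so these absences cannot be read as a lack of REF-2. The ufd-1 window was 100% unique, but most of all genes lack a promoter summit too. The shares of the 8 genes only restate how the genes were picked. The 5 genes held 7 optimal summits, 6 of them in the promoter window of the gene itself and the other beyond the 3' end of cdc-48.1. At the threshold, the weakest of the 7 summits had a signal of 128, the strongest pooled summit at the genes outside the optimal list had 87.5, and the optimal list itself ended at 106, with the strongest pooled peak outside it at 105.

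**Figure D1:**
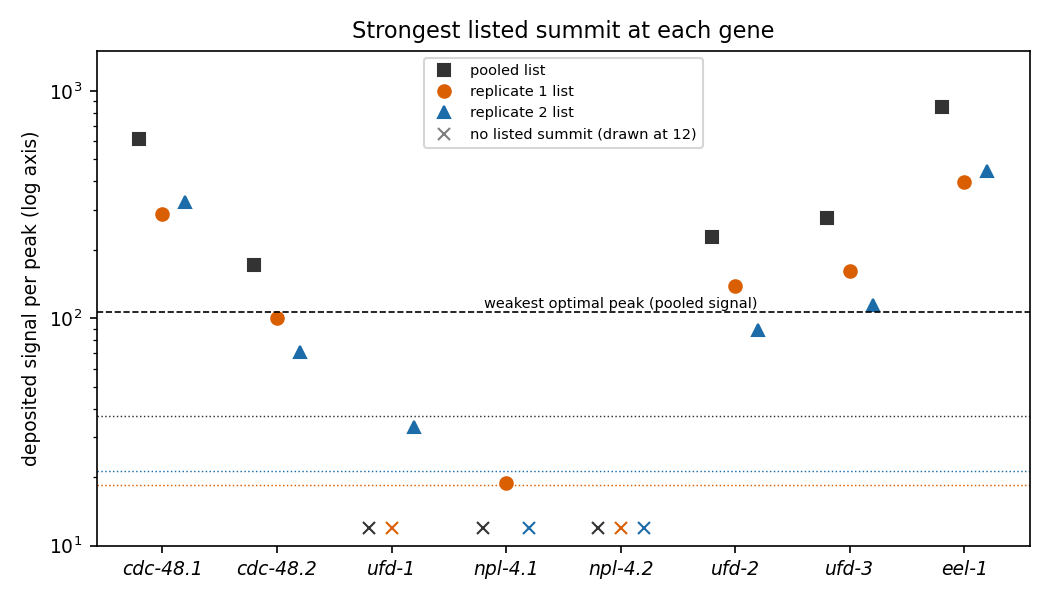
Deposited signal of the strongest listed summit in the neighbourhood of each gene (log axis), for the pooled, replicate 1 and replicate 2 lists, with crosses for lists without a summit; the dashed line is the weakest optimal peak and the dotted lines are the weakest peak of each relaxed list. The genes eel-1 and cdc-48.1 stand highest in all 3 lists, with 847 and 613 in the pooled list, while ufd-1 and npl-4.1 each have a summit in 1 replicate list and npl-4.2 has none.

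The sequence under the promoter summits is shown because it separates the genes into those with single-copy sequence and eel-1, whose peaks lie in repeated sequence. Each run is the pooled summit with 100 bp on either side, 5' to 3' on the strand of the gene, from the RefSeq sequence of WBcel235, the assembly that ce11 names. In the first 4 runs the capitals mark GAGAG or its complement CTCTC, the only searched motif found at the 7 summits. The runs come from chrII:10563485-10563685 (minus strand) for cdc-48.1, chrII:8137399-8137599 (plus strand) for cdc-48.2, chrII:8062334-8062534 (plus strand) for ufd-2 and chrII:9940530-9940730 (plus strand) for ufd-3.
cdc-48.1: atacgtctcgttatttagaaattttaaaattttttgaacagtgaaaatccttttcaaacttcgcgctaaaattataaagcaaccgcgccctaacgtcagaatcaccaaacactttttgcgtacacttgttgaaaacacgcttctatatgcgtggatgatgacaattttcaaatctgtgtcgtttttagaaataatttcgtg
cdc-48.2: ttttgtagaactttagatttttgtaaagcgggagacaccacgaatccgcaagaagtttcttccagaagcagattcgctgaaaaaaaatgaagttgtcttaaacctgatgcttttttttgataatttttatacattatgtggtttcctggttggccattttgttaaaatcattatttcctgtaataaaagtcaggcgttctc
ufd-2: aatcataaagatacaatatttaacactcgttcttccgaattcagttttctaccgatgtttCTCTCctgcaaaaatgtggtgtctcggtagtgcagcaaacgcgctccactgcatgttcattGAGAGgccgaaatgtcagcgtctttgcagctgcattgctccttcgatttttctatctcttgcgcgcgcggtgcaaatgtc
ufd-3: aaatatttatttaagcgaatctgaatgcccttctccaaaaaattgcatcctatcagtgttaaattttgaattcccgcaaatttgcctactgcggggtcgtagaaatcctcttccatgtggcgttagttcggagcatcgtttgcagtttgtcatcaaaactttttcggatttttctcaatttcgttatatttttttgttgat
The 2 runs of eel-1 come from chrIV:3050558-3050758 and chrIV:3050758-3050958 (both minus strand), and here the capitals mark bases covered by a 31-base word that occurs more than once in the genome. They make up 200 bases, all but 1 of the run, at the stronger summit and 129 bases at the weaker.
eel-1 at -554 bp: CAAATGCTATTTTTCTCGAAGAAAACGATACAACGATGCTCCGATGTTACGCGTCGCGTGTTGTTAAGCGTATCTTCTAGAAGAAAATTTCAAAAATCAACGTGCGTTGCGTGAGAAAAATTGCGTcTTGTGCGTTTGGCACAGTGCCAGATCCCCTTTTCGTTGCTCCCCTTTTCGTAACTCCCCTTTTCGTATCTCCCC
eel-1 at -754 bp: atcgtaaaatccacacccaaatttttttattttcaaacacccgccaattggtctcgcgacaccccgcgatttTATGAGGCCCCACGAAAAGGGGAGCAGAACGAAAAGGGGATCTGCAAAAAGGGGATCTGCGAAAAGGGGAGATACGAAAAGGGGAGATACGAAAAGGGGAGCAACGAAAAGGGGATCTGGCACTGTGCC

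The CDC-48 copies differed in both the strength and the place of their peaks. The cdc-48.1 gene (WBGene00007352, chromosome II 10560036 to 10563407, minus strand) had an optimal summit at II 10563585, which is -178 bp from its 5' end, in a peak from 10563469 to 10563694. Its signal was 613 in the pooled list (rank 14), 287 in replicate 1 (rank 17) and 323 in replicate 2 (rank 14). Both replicates thus placed it among their 20 strongest peaks. Their summits lay 17 bp apart. The peak was 226 bp wide, while the median of the optimal list was 440 bp and 86 of its peaks (4.04%) were narrower than that. The summit is intergenic, and the next protein-coding gene upstream (C06A1.6, same strand) ends 704 bp from cdc-48.1. The promoter window of no other protein-coding gene holds the summit. The nearest noncoding gene is the snoRNA gene C06A1.9, 521 bp from it.

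The second optimal summit of cdc-48.1 lay at II 10559089, in intergenic sequence beyond its 3' end and +4318 bp from its 5' end. Its signal was 128 in the pooled list (rank 1402), 52.1 in replicate 1 (rank 2100) and 75.9 in replicate 2 (rank 1168). No promoter window of a protein-coding gene holds it, and the nearest protein-coding 5' end is that of mnk-1, from which it lies at -4045 bp. Among all genes, 359 (1.80%) had at least 2 optimal summits in their neighbourhood, cdc-48.1 and eel-1 among them.

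The cdc-48.2 gene (WBGene00008053, II 8138496 to 8141230, plus strand) had 1 optimal summit, at II 8137499 or -997 bp, in a peak from 8137279 to 8137718. Its signal was 172 in the pooled list (rank 748), 100 in replicate 1 (rank 475) and 70.7 in replicate 2 (rank 1409). Among the optimal promoter summits of the 5 genes it had the lowest signal in the pooled list and in each replicate. The summit lies 3 bp inside the promoter window of cdc-48.2, with the replicate 1 summit at -1016 bp, outside it, and the replicate 2 summit at -980 bp. It is nearer to ctns-1, the cystinosin gene, which is transcribed in the opposite direction and whose 5' end is 581 bp away, so the peak cannot be assigned to one of the pair. A weaker pooled summit stood at the 5' end of cdc-48.2 itself (+3 bp, in the 5' untranslated region, signal 64.1, rank 8840), and another at -782 bp (87.5, rank 3524). The -782 bp summit had a counterpart in both replicates, with a signal of 56.2 in replicate 1 and 37.9 in replicate 2. The +3 bp summit (−log10 q 0.163) had no counterpart in replicate 1, and the nearest summit in replicate 2 lay at -90 bp (37.5). The coding sequences of the paralogs were 76.6% identical over their alignment, and their longest identical run was 35 bp, just above the length of the words used to call sequence unique.

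The genes of the core adaptor had no peak in the pooled list at all. The ufd-1 gene (WBGene00006733, IV 12329408 to 12330890, minus strand) had no summit in replicate 1 and 2 weak ones in replicate 2, both in its coding exons, at +963 bp (signal 33.4, rank 11897) and +755 bp (24.4, rank 23963). The median signal of the replicate 2 list was 30.4, so one lies just above and the other below it. Their −log10 q was 0.162 and 0.0789, so they may be background. Its 5' end is 85 bp from the end of F19B6.1, a gene on the same strand. The promoter window of F19B6.1 likewise held no summit of any list.

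The npl-4.1 gene (WBGene00019120, II 5631351 to 5633284, plus strand) had 1 summit, in replicate 1, at -1874 bp with a signal of 18.8 (rank 29152), inside the neighbouring gene F59E12.6. The npl-4.2 gene (WBGene00019121, II 5622889 to 5624959, plus strand) had none in any list, as had 3627 of all genes (18.2%). Over the 8 genes, 5 had a summit in the pooled list, against 71.4% of all genes. In replicate 1 it was 6, against 73.2%, and in replicate 2 also 6, against 71.9%. A count of 5 or 6 of 8 is close to these backgrounds, so a weak summit in the neighbourhood does not set the group apart.

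The absence at npl-4.1 and npl-4.2 stands beside a property of their sequence. They are near-identical copies, with coding sequences of 1587 bp each that match at 1579 positions (99.5%) and share an identical run of 1215 bp. Of the 31-base words in their promoter windows, 2.65% occurred once in the genome for either gene, and in their gene bodies 13.3% for npl-4.1 and 15.3% for npl-4.2. In the whole nuclear genome 91.3% of such words occurred once. Of the 257 genes whose promoter window was less than 10% unique, none had an optimal summit there and none had a pooled one. The shares were 5.17% with an optimal summit among 2651 genes with windows from 10% to under 90% unique, and 6.56% among 17065 genes at 90% or more. At npl-4.1 and npl-4.2, a lack of REF-2 and a lack of uniquely placed reads therefore cannot be told apart. The promoter window of ufd-1, in contrast, was 100% unique, as were those of cdc-48.2, ufd-2 and ufd-3, which held optimal summits.

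**Figure D2:**
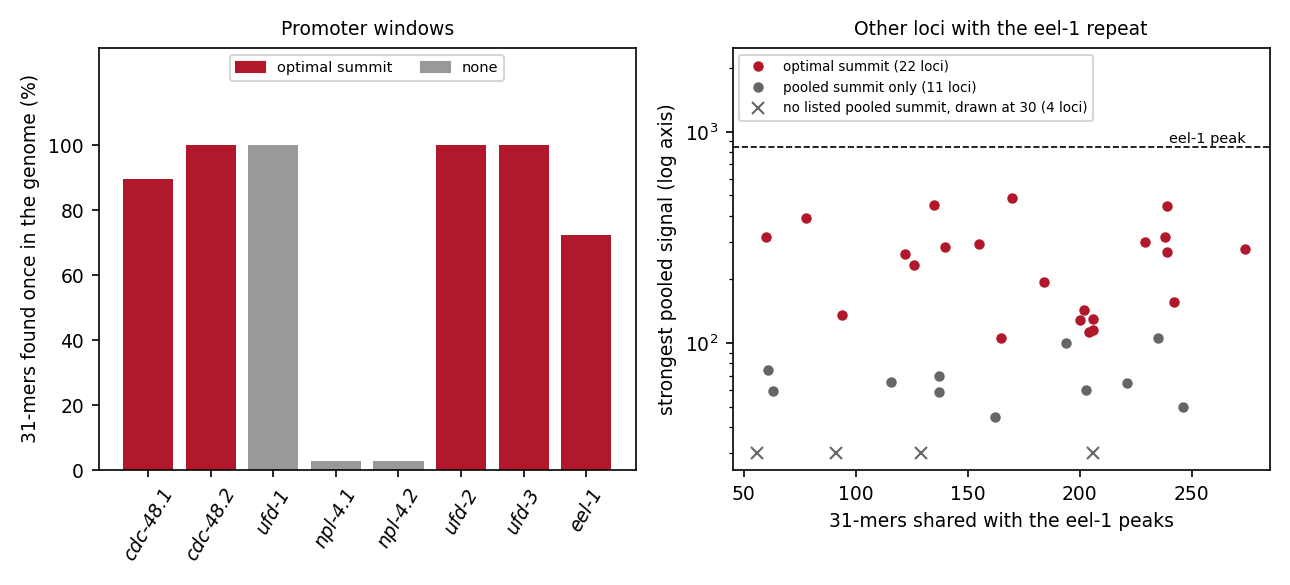
Left, share of 31-base words in each promoter window that occur once in the genome (%), coloured by whether the gene has an optimal summit; npl-4.1 and npl-4.2 are at 2.65% and ufd-1 at 100%. Right, the 37 other loci that share 50 or more such words with the eel-1 peaks, by words shared and by their strongest pooled signal (log axis); 22 hold an optimal summit, all of them below the eel-1 signal of 847.

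The cofactor genes ufd-2 and ufd-3 each had 1 optimal summit close to the 5' end. The ufd-2 gene, coding for the chain-extending ligase (WBGene00006734, II 8062741 to 8066193, plus strand), had its summit at II 8062434 or -307 bp, in a peak from 8062214 to 8062653. Its signal was 228 in the pooled list (rank 376), 139 in replicate 1 (rank 189) and 89.1 in replicate 2 (rank 822). The replicate summits lay 47 bp apart, the largest distance among the 7 summits, against a median of 25 bp for all optimal peaks. The summit lies in the 987 bp between T05H10.8, which ends upstream on the same strand, and ufd-2. The next gene downstream, pdha-1, a subunit of pyruvate dehydrogenase, begins 91 bp after ufd-2 on the same strand and held no summit in its own promoter window in the optimal or pooled list.

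The ufd-3 gene (WBGene00007333, II 9940753 to 9944107, plus strand) had its summit at II 9940630 or -123 bp, in a peak from 9940410 to 9940849. Its signal was 277 in the pooled list (rank 220), 161 in replicate 1 (rank 116) and 114 in replicate 2 (rank 445). The replicate summits lay 2 bp apart. The summit falls in the 320 bp that separate ufd-3 from C05C10.5 upstream on the same strand, whose own promoter window held no optimal or pooled summit. The gene flad-1 begins 29 bp after ufd-3 on the same strand, and its promoter window held no summit in any list.

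**Figure D3:**
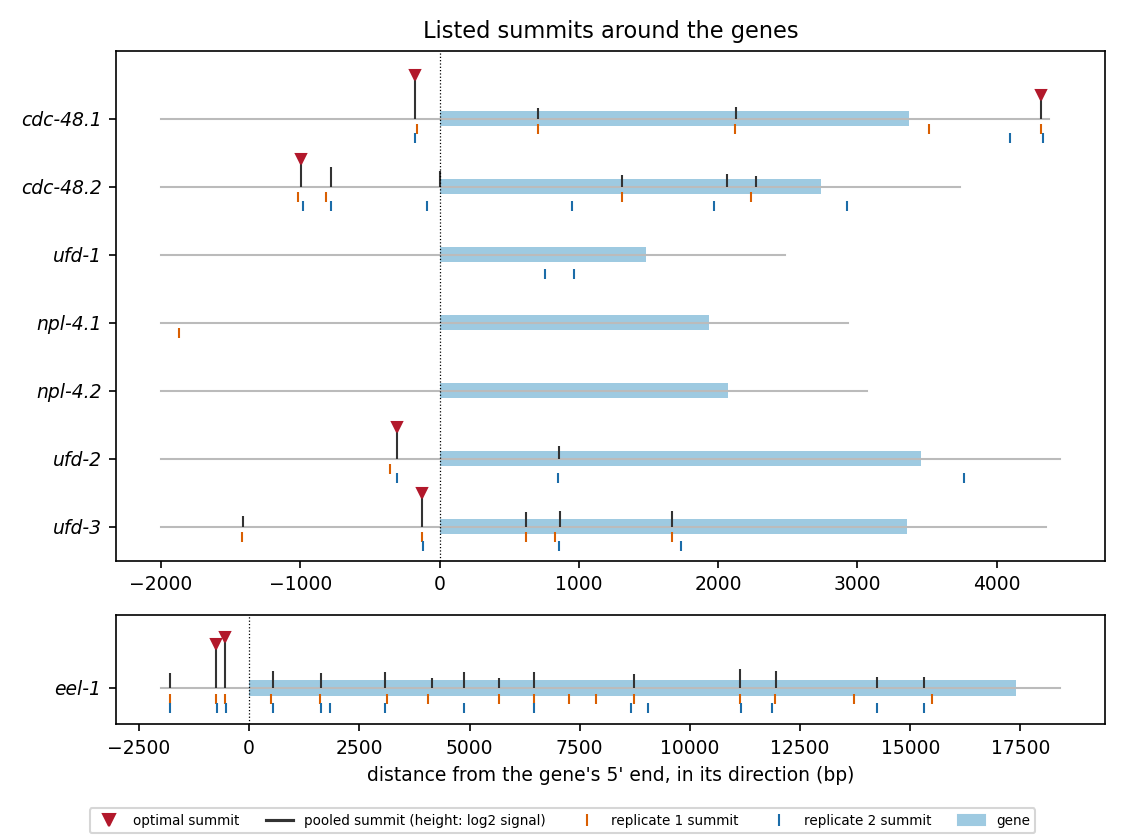
Positions of listed summits around the 8 genes, as distance from the 5' end in the direction of the gene (bp); bars are gene bodies, grey lines the searched neighbourhood, black lines pooled summits with a height in log2 signal, triangles optimal summits, and ticks below the replicate summits. Every optimal summit lies outside the gene bodies, and the 2 of eel-1 are 200 bp apart.

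The ligase gene eel-1 (WBGene00022069, IV 3032713 to 3050104, minus strand) had the strongest peak of the group. Its summit at IV 3050658, or -554 bp, in a peak from 3050438 to 3050877, had a signal of 847 in the pooled list, 399 in replicate 1 and 445 in replicate 2. It ranked 5 in each of these lists. The second optimal summit, at IV 3050858 or -754 bp in a peak from 3050764 to 3051036, had 479 in the pooled list (rank 37), 220 in replicate 1 (rank 42) and 317 in replicate 2 (rank 18). The nearest protein-coding gene upstream, ivph-3, is 3623 bp away, and the promoter window of no other protein-coding gene holds either summit.

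Both eel-1 summits lie in repeated sequence, as the printed runs show. Of the 31-base words in the window printed for each, 25.1% occurred once in the genome at -554 bp and 42.1% at -754 bp, and the most frequent word occurred 40 times at the first and 64 times at the second. The windows at the 5 summits of the other genes were 100% unique. Among all optimal windows, 1798 of 2129 (84.5%) were entirely unique and 41 (1.93%) were less than 50% unique. The soft-masking of the reference, which marks repeats and simple sequence, covered 100% of the -554 bp window and 78.6% of the -754 bp window. It covered 57.2% at ufd-3, 39.3% at the cdc-48.1 promoter, 26.9% at cdc-48.2, 18.9% at the downstream summit of cdc-48.1 and 18.4% at ufd-2, against a median of 12.9% over all optimal windows. The word AAAAGGGG, on either strand, occurred 3 times in the first window and 7 times in the second, against 0 in the 5 windows of the other genes. It stood in 88 of all optimal windows (4.13%), and 4 or more times in 20 (0.939%).

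The repeat of eel-1 was found under other peaks too. The sequence spanned by both eel-1 peaks, 599 bp long, shared 50 or more 31-base words with 37 other loci on all 6 chromosomes. Of these loci, 22 (59.5%) had an optimal summit within 200 bp and 33 (89.2%) a pooled one, while 1.60% of genome positions taken as the start of a stretch of the same median length (372 bp) had an optimal summit that near. The optimal signals at the loci ran from 106 to 484 with a median of 267. Loci were named by the 5' end nearest to the middle of the shared stretch, after their values were seen. Among the strongest were those at spd-5, a centrosome scaffold gene (484, rank 33), and nrde-2, a nuclear RNA interference gene (449, rank 45). The summit with 449 is itself nearest to the 5' end of atad-3, at -434 bp. All optimal signals at the 37 loci were weaker than the 847 at eel-1. The treatment of reads with several equally good positions was not given, so signal placed by unique reads and signal spread over copies cannot be told apart. Without optimal summits whose window was less than 50% unique, an alternative added after the data were seen, 4 of the 8 genes kept an optimal summit in the promoter window, against 6.19% of all genes, and eel-1 was the gene lost.

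Inside the body of eel-1, which is 17392 bp long and 72.2% coding, the pooled list had 12 further summits, all in coding exons and all weak, and the neighbourhood of eel-1 held 1 more, at -1789 bp. Their signals ran from 37.6 to 75.1, below the threshold of the optimal list. Their −log10 q ran from 0.0567 to 0.286, while that of the optimal list starts at 0.954. Whether they mark binding or background was not tested, so the density given next is not read as binding. The body had 0.690 pooled summits per kb, against 0.317 over all gene bodies and 0.336 over the 998 bodies of 10 kb or more. In the neighbourhoods of the shorter genes, pooled summits outside the optimal list numbered 2 at cdc-48.1 (43.6 to 46.5), 5 at cdc-48.2 (42.8 to 87.5), 1 at ufd-2 (52.8) and 4 at ufd-3 (42.8 to 65.8). All lay in the gene body except the cdc-48.2 summit at -782 bp and a ufd-3 summit at -1409 bp, inside C05C10.5.

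Both replicates put the strongest peaks of the 5 genes in the same order, with eel-1 highest, then cdc-48.1, ufd-3, ufd-2 and cdc-48.2, but the signal ratio between replicates was not the same at all of them. At the 2112 optimal peaks that had a counterpart in both replicate lists, the log2 ratio of replicate 2 to replicate 1 signal had a median of 0.18 and a central 95% from -0.74 to 1.10. The ratio was -0.51 at cdc-48.2, -0.64 at ufd-2 and -0.50 at ufd-3, all higher in replicate 1 and at the 5.45, 3.60 and 5.68 percentile of all matched peaks. It was 0.17 at the cdc-48.1 promoter, 0.54 at its downstream summit, 0.16 at -554 bp of eel-1 and 0.53 at -754 bp. All 7 ratios lie inside the range that holds 95% of peaks, and with 1 library on each side no test applies. In all, 4 of the 7 were higher in replicate 2, against 1452 of 2112 (68.8%). The replicate summits were a median of 26 bp apart at the 7 peaks, against 25 bp at all optimal peaks.

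Base composition was set beside the ratios at the 7 summits. The share of G and C in the stretch of 100 bp on either side of each summit was 33.8% at the cdc-48.1 promoter, 33.8% at cdc-48.2, 35.8% at ufd-3, 44.8% and 49.3% at the eel-1 summits, 45.3% at ufd-2 and 50.2% at the downstream summit of cdc-48.1. The median of all optimal windows was 47.3%, with a central 95% from 33.3% to 60.1%, so 3 of the 7 lie near the low end. Across the 2112 peaks, which share both libraries, Spearman's rho of GC share with the ratio was 0.17. The median ratio was -0.10 for the 133 peaks under 36% GC, 0.18 for the 1294 from 36% to under 50% and 0.24 for the 685 at 50% or more. At the genes, the highest GC shares, 50.2% and 49.3%, went with the highest ratios, 0.54 and 0.53. The low shares of cdc-48.2 and ufd-3 went with ratios of -0.51 and -0.50. In contrast, the cdc-48.1 promoter, with the same GC share as cdc-48.2, had a ratio of 0.17. The lowest ratio was that of ufd-2, whose GC share was close to the median of all windows. The part of GC content in the ratios at the genes was not tested.

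**Figure D4:**
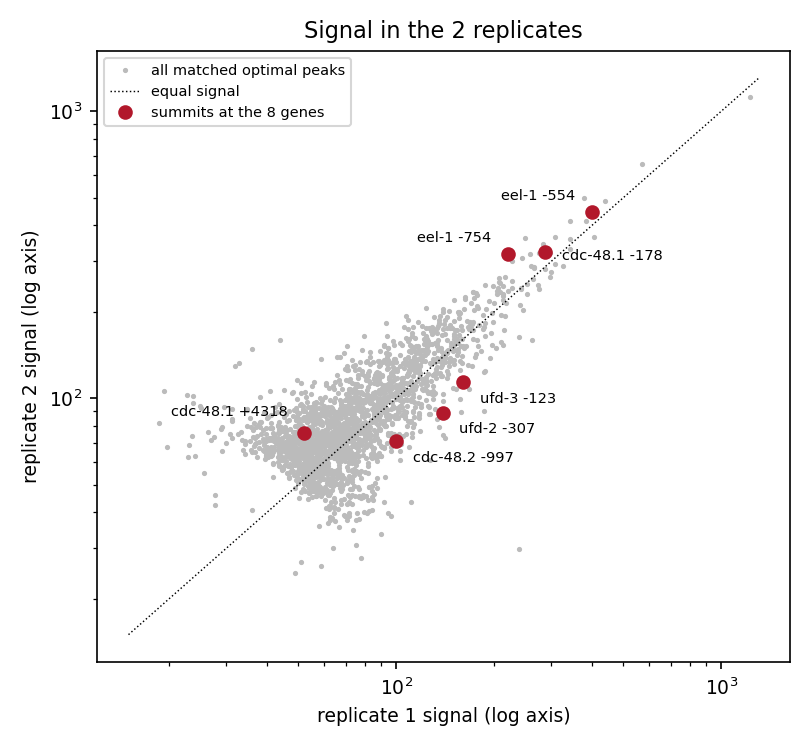
Signal in replicate 1 (x, log axis) and replicate 2 (y, log axis) at the 2112 matched optimal peaks (grey) and at the 7 summits of the 8 genes (red, with the distance from the 5' end in bp); the dotted line marks equal signal. The summits of cdc-48.2, ufd-2 and ufd-3 lie below the line, among the lower grey points, and the other 4 lie above it.

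Searched motifs were few at the 7 summits. The Zic-type core CAGCAGG or CAGCGGG, on either strand, occurred in 0 of the 7 windows and in 141 of all 2129 optimal windows (6.62%). The GC-rich motif GGGCGG occurred in 0 of 7 and in 285 of all (13.4%), and the E-box CACGTG in 0 of 7 and in 97 (4.56%). GAGAG occurred in 2 of the 7, at ufd-2 with 1 match on each strand, as the capitals show, and at the downstream summit of cdc-48.1 with 1 match, against 1346 of all (63.2%). A missing match says only that these letters are not in the window.

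For each of the 5 genes, the 3 optimal peaks nearest in log2 signal over the 2 libraries were named by their nearest 5' end. For cdc-48.1 they were those of chaf-2, a chromatin assembly factor subunit, Y39E4B.6 and atx-2, an RNA-binding ataxin gene, at distances of 0.054 to 0.097. For eel-1 they were those of F10E9.11, ftt-2, a 14-3-3 protein gene, and rpl-3, a ribosomal protein gene, at 0.113 to 0.189. For cdc-48.2 they were ari-2, sec-3 and tag-72 (0.042 to 0.083), and the summit named by ari-2 lies far from its 5' end, at +10658 bp. For ufd-2 they were btf-1, F10E9.5 and eif-3.C (0.033 to 0.098), and for ufd-3 cyn-10, nmad-1 and sluh-7 (0.050 to 0.108). As a point of scale, ref-2 itself had 4 optimal summits in its neighbourhood, the strongest with a signal of 371 (rank 81), and none in its promoter window.

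The wider pathway was read from 6 lists of 74 genes that are not among the 8. Of these, 20 (27.0%) had an optimal summit in the neighbourhood, against 12.7% of all genes, and 12 (16.2%) in the promoter window, against 6.29%. Neighbouring list members can share a summit, and the 20 genes rest on 19 strongest summits. Their signals ran from 107 to 348 with a median of 154, so none came near the 847 of eel-1 or the 613 of cdc-48.1. Median neighbourhoods were 5716 bp long in the lists and 5027 bp over all genes. The lists were drawn up with earlier results of these data known, so these shares are a description.

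**Figure D5:**
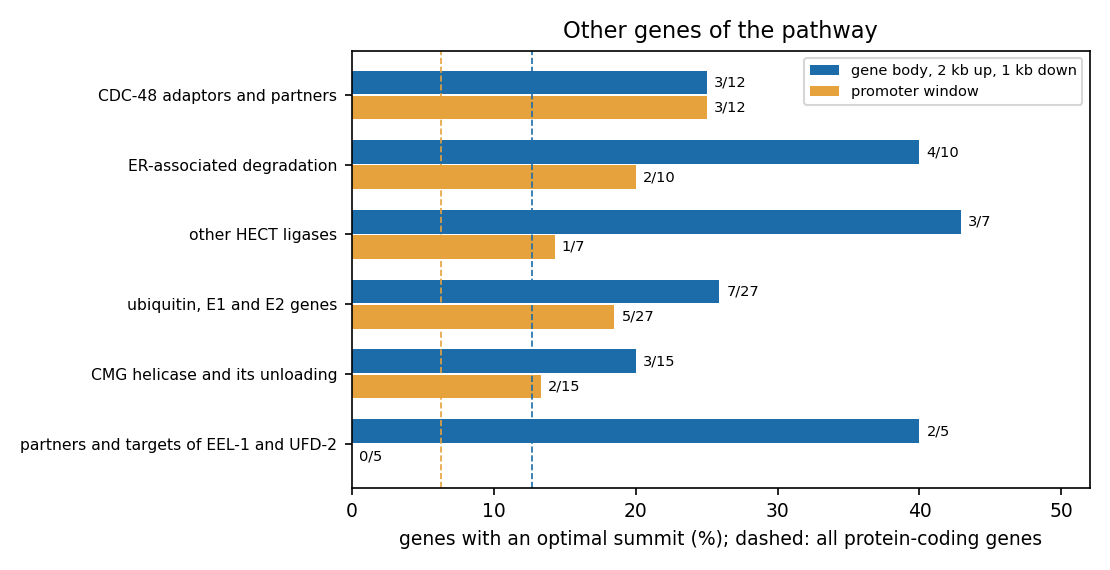
Share of genes (%) with an optimal summit in the neighbourhood (blue) or the promoter window (orange) for the 6 pathway lists, with counts; dashed lines are the shares of all protein-coding genes, 12.7% and 6.29%. The neighbourhood bars all lie right of their line, while the list of partners and targets of EEL-1 and UFD-2 has no promoter summit.

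Among other adaptors and partners of CDC-48, 3 of 12 genes had an optimal summit in both windows. They were ubxn-2, of the p47 adaptor family, at -169 bp (signal 113), ubxn-3, which acts with CDC-48 in helicase removal, at -702 bp (130), and ubql-1, the ubiquilin gene, at -467 bp (153). The ubql-1 summit also lies in the promoter window of pdi-3, a protein disulfide isomerase gene. A stronger summit of ubxn-3 (156), +3917 bp from its 5' end, lies in the promoter window of F48A11.4.

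For degradation from the endoplasmic reticulum, a main use of CDC-48, 4 of 10 matched genes had a summit in the neighbourhood and 2 in the promoter window. The promoter summits were those of rnf-121, a membrane-bound ligase gene, at -236 bp (signal 329, rank 117), and ubc-6, a membrane-bound conjugating enzyme gene, with summits at -312 bp (236) and -108 bp (165). The rnf-121 summit is shared with C16C10.4 and the -312 bp summit of ubc-6 with aka-1. The summit of marc-6, a membrane-bound ligase gene, has a signal of 176 and lies in a coding exon at +7782 bp. The ubc-7 summit (151, +1160 bp) falls in the promoter windows of rpac-19 and tbg-1.

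Of 7 other HECT ligase genes, 3 had a summit in the neighbourhood and 1, wwp-1, in the promoter window (-241 bp, signal 175). The strongest was at oxi-1 (348, rank 96), at -1202 bp in an intron. The strongest at wwp-1 (186) lies at -1676 bp, in the promoter window of icd-2, and is the same summit that counts for psf-3. The ubr-5 summit (110) is in a coding exon at +5915 bp. None of the 3 reached the signal of either eel-1 summit.

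Of 27 ubiquitin, E1 and E2 genes, 7 had a summit in the neighbourhood and 5 in the promoter window. Besides ubc-6 and ubc-7, these were ubc-3, of the Cdc34 family, at -280 bp (205), and ubc-8 at -1537 bp (154), with ubc-9, the SUMO-conjugating enzyme gene, at -223 bp (139), the polyubiquitin gene ubq-1 at -108 bp (130) and ubc-25 at -262 bp (124). Of 15 matched genes of the replicative helicase and its unloading, 3 had a summit and 2 had one in the promoter window. These were psf-2, a GINS subunit gene, at -282 bp (147, shared with zipt-1), and elb-1, the elongin B gene, at -219 bp (107, shared with Y41C4A.11), while psf-3, another GINS subunit gene, counted through the icd-2 summit (186) at +991 bp. Of 5 partners and targets of EEL-1 and UFD-2, 2 had a summit and none in the promoter window. They were unc-45, a myosin chaperone gene, at +11258 bp in a noncoding exon (242), and skn-1 at +3097 bp in an intron (140).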

How the data were processed

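REF-2 ChIP-seq peaks of 2 replicates in 1 group were read from lists deposited on the ce11 build. Signal and −log10 q per peak are the authors' deposited values, the q per the labels' file descriptions. The peak caller, aligner, versions, treatment of reads with several positions and scaling between lists are not given in the sources used here, and lists on the ce10 build were not used. No column of per-sample values was left out (0). Library depth is unknown.

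Gene models came from Ensembl release 115 and sequence from RefSeq, both WBcel235, and coordinates are 1-based. Summits were counted in neighbourhoods (2000 bp upstream, gene body, 1000 bp downstream) and promoter windows (1000 bp upstream to 200 bp downstream). Replicate summits were matched within 200 bp. A 31-base word was unique when it occurred once in the nuclear genome, strands joined. Paralogs were compared by global alignment of coding sequences, since no protein table was given. Python 3.11.15, pandas 2.3.3, numpy 2.4.6, Biopython 1.88 and matplotlib 3.10.9 were used, and counting was tested on simulated peaks.

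Named were the 8 genes, genes whose promoter window or body holds their optimal summits, up to 4 genes per pathway list by highest signal in the neighbourhood, the 3 most alike peaks per gene, and ref-2. Other genes named in the pathway lists, promoter summits of list genes, neighbours and repeat loci were added after their values were seen. In the lists, edem-1, edem-2, edem-3 and cdc-45 matched no gene symbol. Genes and lists were chosen with earlier results of these data known. The repeat search, the word AAAAGGGG and the alternative without repeated sequence were chosen after seeing the data. All results are descriptions without tests. Alternatives covered the replicates, list threshold, windows, matching distance, centring, ranks and motif width.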

Additional observations from a re-analysis of the deposited data

How the results depend on the processing

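The count of 5 genes with an optimal summit held, in the neighbourhood and in the promoter window, with the strongest peaks of either replicate in place of the optimal list and with the stronger part of that list. For all genes, the neighbourhood share was 13.0% with replicate 1 alone and 12.5% with replicate 2 alone. The promoter shares were 6.51% and 5.98%. With the stronger part of the list the neighbourhood share fell from 12.7% to 7.44%, and the promoter share fell too. The 8 genes were selected on these signals, so a count that holds only restates how they were picked. With replicate 1 alone, cdc-48.2 kept its place in the promoter count only through a weaker summit at -817 bp (signal 56.2, rank 1732). Its stronger summit, at -1016 bp, lay outside that window. In gene bodies alone it was 0 (3.06% of all genes), and in promoter windows of 500 bp upstream it was 3 (4.86%), with cdc-48.2 and eel-1 lost. The 5 genes with a relaxed summit in both replicates became 3 in gene bodies alone. The share of all genes was not counted in either setting, so these counts are not read as a trait of the genes. The 20 pathway genes became 12 in promoter windows, and 18 to 20 with 1 replicate left out. Of 26 values that answer a comparison, 22 stayed near the reported one or moved by less than the spread over peaks, and the 4 given above did not. The median ratio of the replicates, 0.16, was -0.03 after centring and 0.00 on ranks. On ranks the ratios were -1.57 at cdc-48.2, -2.12 at ufd-2, -1.94 at ufd-3 and 1.22 at -754 bp of eel-1. These are log2 ratios of the replicate 1 rank to the replicate 2 rank, on another scale than signal. Their range over all optimal peaks was not computed, so their size is not read as a larger difference between replicates. In windows 50 bp longer on each side, 1 of the 7 windows held CACGTG, against 6.01% of all optimal windows. The causes of these changes were not tested. No paired analysis was possible because there is 1 group. Without a replicate no ratio can be had.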
